A study of Mus musculus with 13 samples.

Results

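Transcripts of the pancreatic acinar cell were described across 13 mouse liver arrays. The 34 genes encode digestive enzymes, proteins of the secretory granule, regenerating proteins and acinar transcription factors, and they were chosen because earlier results of these data showed them high on 3 of the arrays. Under their gene names 33 of the 34 were found on the array, through 40 probes, out of 30028 gene names and 39429 probes in all. Prss3, a trypsinogen gene, had no probe under that name and is not described. The livers came from female C57BL6 mice, 12 weeks old, in 3 groups: a diet labelled HFHS, whose composition the labels do not give, with vehicle (HFHS, n = 5), a standard diet with a mixture of 4 pollutants (pollutants, n = 5), and the standard diet, labelled ST, with vehicle (ST vehicle, n = 3). The series text could be read as if the mixture was also given in the HFHS diet, but every sample with pollutants is labelled with the standard diet. The labels call the samples of a group biological replicates.

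Acinar cells of the exocrine pancreas make digestive proenzymes in bulk, store them in zymogen granules and release them into the pancreatic duct. The proteases are made as inactive precursors, and trypsin activates the others in the gut. Expression of these genes in the adult pancreas depends on PTF1, a complex of PTF1A, a common E-protein partner and RBPJL, and on BHLHA15 (also called MIST1), which shapes the secretory machinery.

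A level is given here as the log2 of the background-corrected fluorescence of a probe minus the 75th percentile of its array, so that 0 is the 75th percentile and each unit is a doubling. That percentile lay between 782 and 1354 intensity units. The scanner software marked 62.8% to 69.5% of the probes of an array as well above background. The dimmest probe well above background on an array lay between -5.74 and -4.94, and the median negative control between -7.81 and -6.85, so levels under about -5 carry no order. Levels of different probes depend on the probe and were not compared with each other. Arrays lay on 5 slides, with the HFHS and the pollutant array of the same number on the same slide, and ST vehicle arrays 1, 2 and 3 on slides 1, 2 and 5. The 12 hepatocyte markers were well above background on all 3 arrays that the account turns on, and their summed level was 2196 to 3125 on these arrays against 2246 to 3174 on the others.

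Most acinar transcripts were far higher on HFHS arrays 3, 4 and 5 than on HFHS arrays 1 and 2 or any array of the other groups. Some were measured in every liver: 20 and 23 of the 33 genes were well above background on HFHS arrays 1 and 2, 17 to 26 on the pollutant arrays and 19 to 23 on the ST vehicle arrays, and 15 were on all 13 arrays. On the arrays other than HFHS 3, 4 and 5 the share well above background was 51.5% to 78.8% of the 33, against 64.4% to 69.5% of all gene names. On the 3 arrays 31 of the 33 genes (93.9%) lay above every one of the other 10 arrays, where 0.46% of all gene names did so. By at least 1 log2 unit it was 27 of 33, against 0.127% of all gene names. None of the 33 lay below every other array, where 0.24% of all gene names did. These shares describe how the genes were chosen and were not tested. Together the 33 probes gave 0.424%, 0.161% and 1.44% of the summed intensity of HFHS arrays 3, 4 and 5, against 0.00451% to 0.0252% on the other 10, the highest being pollutant array 2. The median difference between the mean of the 3 arrays and the mean of the other 10 was 7.08 log2 units over the 33 genes and -0.05 over all gene names. For 18 of the 33 genes some of the other 10 arrays were not well above background, so each difference of such a gene is given below as a bound, with the dim levels raised to the dimmest well-measured signal of their array. With these bounds the median was 6.55 and the highest 11.25. Of the 33, 31 were well above background on all 3 arrays.

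The array order was nearly the same for every gene. In 32 of 33 genes HFHS array 5 was highest, then array 3, then array 4, an order that 11% of all gene names had. Reg2 was the exception. Of the 22 genes that passed the filter on dim probes, 0 were called higher in HFHS than in ST vehicle and 0 higher in HFHS than in pollutants in the limma fit, with 16 and 20 under an unadjusted p of 0.05. The unadjusted counts were 2 and 19 with the slide as a block, and 2 to 21 and 13 to 22 with an array left out. Of all 19533 genes tested, the calls of HFHS against ST vehicle were 0.235% on the higher side and 0.451% on the lower, and those of HFHS against pollutants 1.57% and 2.3%. The rule used these contrasts, so nothing is read from the counts. Leaving out HFHS array 2 moved 5 of the 22 over the threshold against pollutants.

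**Figure D1:**
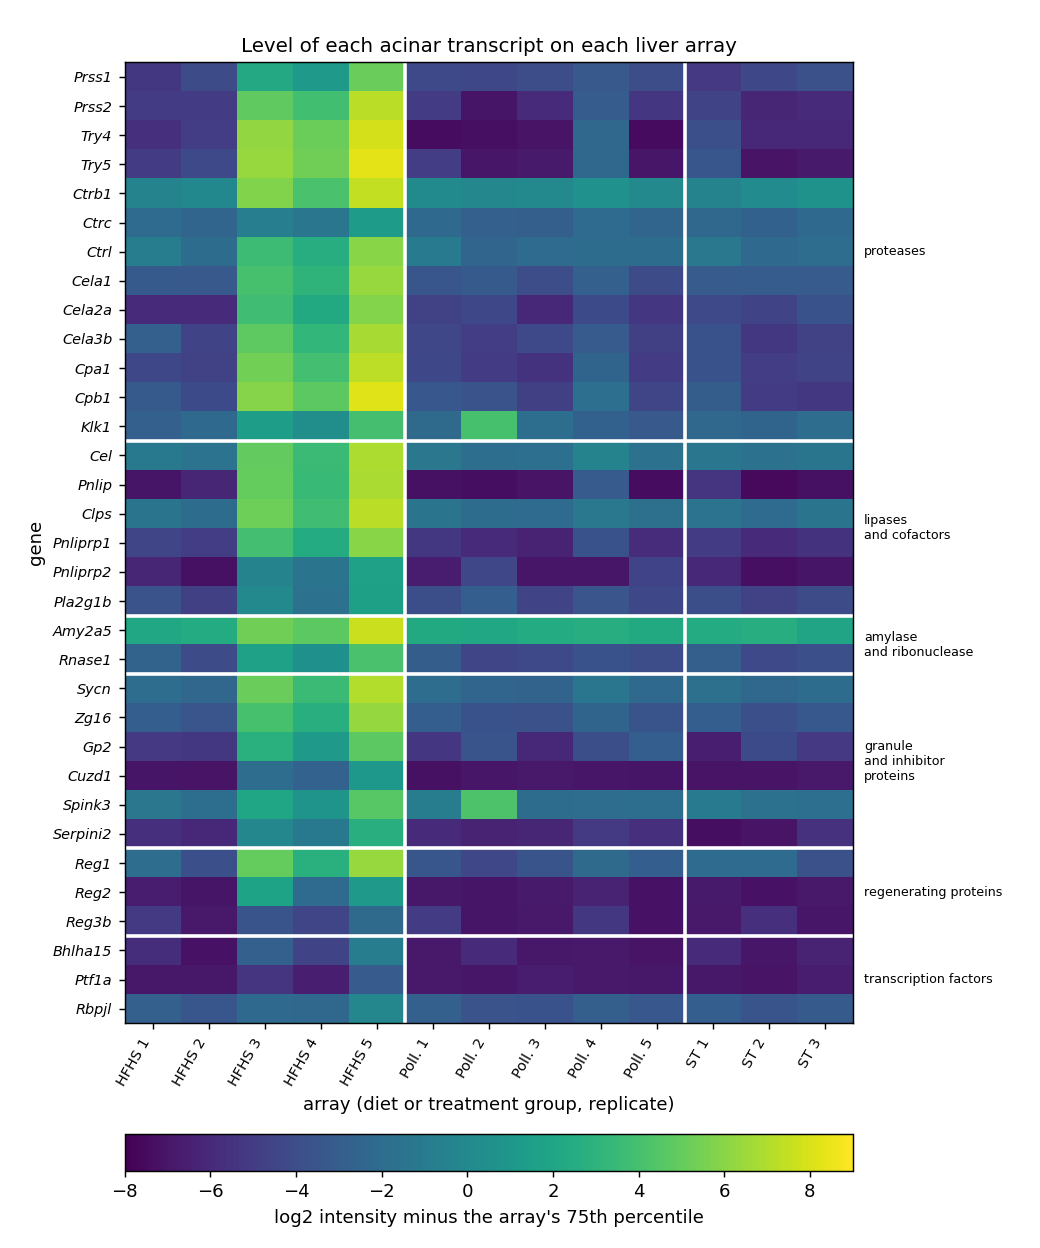
Level of the 33 acinar transcripts (rows, grouped by role) on the 13 arrays (columns: HFHS, pollutants, ST vehicle), as log2 intensity minus the 75th percentile of the array. Columns HFHS 3, 4 and 5 are bright in nearly every row, and Klk1 and Spink3 are bright on pollutant array 2 as well; rows are separate probes and are not to be compared with each other.

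The trypsinogens are the precursors of the protease that activates the others. Try4 stood at -5.70, -4.94, 6.24, 5.16 and 7.94 on HFHS arrays 1 to 5. On pollutant arrays 1 to 5 it stood at -7.41, -7.33, -7.14, -2.30 and -7.48, and on ST vehicle arrays 1 to 3 at -3.88, -6.13 and -6.02. The 3 high HFHS arrays did not overlap with any other, and among the rest pollutant array 4 and ST vehicle array 1 stood above the others. The difference between the 3 arrays and the other 10, of which 3 were well above background, was at least 11.16 log2 units. Try5 had 6.41, 5.31 and 8.34 on HFHS arrays 3, 4 and 5, against -7.10 to -2.34 (median -5.86) on the other 10, of which 3 were well above background, a difference of at least 11.25. These values cannot be assigned to a single gene: the Try4 probe also lists the Try5 transcript, and the 2 probes overlap over 45 bases with 2 differing. In the 30 bases of each shown here, taken from the scanner files, the capital marks the only base that differs.
Try4 probe (chr6:41255472-41255501, mm9, + strand): cattgcTgcaaactaagcatccctttgaag
Try5 probe (chr6:41261262-41261291, mm9, - strand): cattgcCgcaaactaagcatccctttgaag

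Prss2, another trypsinogen, had 4.87, 3.85 and 7.23 on HFHS arrays 3, 4 and 5 and -7.04 to -3.05 (median -5.17) on the other 10, of which 5 were well above background. Prss1 was measured by 2 probes that gave the same array order and unlike differences. Its first probe, which has the higher mean and also lists a transcript of Gm10334, had 2.27, 1.15 and 5.09 on the 3 arrays and -5.27 to -3.25 (median -4.19) on the other 10, a difference of at least 7.05. The second probe had 3.69, 2.72 and 6.09, against -7.32 to -4.79 (median -7.11), a difference of at least 9.28. The first probe was well above background on 8 of the other 10 arrays and the second on 1, so whether a Prss1 signal was measured in the remaining livers depended on the probe. Their sequences are given to show how near the trypsinogen probes lie to each other; capitals mark the longest run shared between Prss1 probe 1 and the Prss2 probe (14 bases), and in Prss1 probe 2 the longest run shared with the probe of Gm5409 (35 bases).
Prss1 probe 1 (chr6:41412628-41412687, mm9, + strand): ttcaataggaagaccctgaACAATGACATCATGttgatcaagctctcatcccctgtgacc
Prss1 probe 2 (chr6:41412562-41412621, mm9, + strand): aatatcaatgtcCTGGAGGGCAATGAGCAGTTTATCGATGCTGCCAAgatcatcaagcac
Prss2 probe (chr6:41473937-41473996, mm9, + strand): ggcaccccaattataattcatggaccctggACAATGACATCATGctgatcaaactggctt

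The chymotrypsinogens cut after aromatic or large hydrophobic residues and were measured in every liver. Ctrb1 had 5.75, 4.12 and 7.45 on HFHS arrays 3, 4 and 5, against -0.41 to 0.72 (median 0.01) on the other 10, all well above background. Ctrl had 3.65, 2.57 and 5.98, against -2.44 to -0.89. The differences were 5.71 and 5.84 log2 units, with every other array measured above the floor. Ctrc, which in humans degrades trypsinogen, differed least among the proteases: its brighter probe had -0.74, -1.32 and 1.34, against -2.83 to -2.03 (median -2.36). On its other probe the 3 arrays, at -4.30, -3.98 and -2.63, overlapped with the other 10, at -4.98 to -3.35.

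The elastases, named for the elastin they cut, and the carboxypeptidases, which trim single residues from the end of a peptide, were high together. Cela1 had 4.05, 3.05 and 6.39 on HFHS arrays 3, 4 and 5, against -4.03 to -2.80 (median -3.18) on the other 10. Cela2a differed by at least 8.61 and Cela3b by at least 9.18 log2 units between the 3 arrays and the rest. For the carboxypeptidases, Cpa1 had 5.38, 3.91 and 7.29, against -5.52 to -2.51 (median -4.59), and Cpb1 had 5.94, 4.74 and 8.19, against -5.21 to -1.76 (median -3.91). None of these 5 genes overlapped between the 3 arrays and the rest, and for Cpa1, Cpb1 and Cela1 the highest of the rest was pollutant array 4.

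The lipases and their cofactor split the fat of a meal. Pnlip, the main triglyceride lipase, had -7.04, -6.15, 4.99, 3.46 and 6.81 on HFHS arrays 1 to 5. On pollutant arrays 1 to 5 it had -7.25, -7.36, -7.13, -3.15 and -7.47, and on ST vehicle arrays 1 to 3 it had -5.41, -7.55 and -7.22. Apart from the 3 high arrays, only pollutant array 4 was well above background. Its relatives Pnliprp1 and Pnliprp2 differed by at least 9.02 and at least 4.95 log2 units, with 4 and 2 of the other 10 arrays well above background. Cel, the bile salt-dependent lipase, had 4.90, 3.62 and 6.93 on HFHS arrays 3, 4 and 5, against -1.84 to -0.39 (median -1.45) on the other 10, and was well above background on all 13 arrays.

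Clps encodes colipase, which anchors the lipase to bile-covered fat, and its 2 probes disagreed on the liver level. The brighter one had 5.24, 3.81 and 7.21 on HFHS arrays 3, 4 and 5, against -2.06 to -1.20 (median -1.61) on the other 10, all of them well above background. The other had 3.37, 2.12 and 5.60, against -7.62 to -4.90 (median -7.41), with pollutant array 4 the highest and 1 of the 10 well above background. The differences were 7.10 and at least 8.83 log2 units. Pla2g1b, the pancreatic phospholipase, differed by 4.04 on the brighter probe and by 0.75 on the other, where the 3 arrays overlapped with the rest by 0.02 log2 units.

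Amylase, which splits starch, showed the same dependence on the probe. Amy2a5 is the pancreatic amylase, and its brighter probe also lists the transcript of Amy1, the salivary and liver amylase. That probe had 5.33, 4.72 and 7.65 on HFHS arrays 3, 4 and 5, against 1.95 to 2.62 (median 2.38) on the other 10, a difference of 3.54. The probe that lists only Amy2a5 had 7.57, 7.14 and 8.38, against -0.02 to 1.63 (median 0.32), a difference of 7.30, with pollutant array 4 the highest of the 10. The Amy1 probe itself, no member of the list, had 6.85, 6.45 and 7.91, against 4.65 to 5.20. Over the 30 bases shown, the probe for Amy2a5 alone and that for Amy1 differ at the 3 bases in capitals, and over the 46 bases that overlap they differ at 7.
Amy2a5 probe 1, lists Amy1 too (chr3:113091400-113091459, mm9, - strand): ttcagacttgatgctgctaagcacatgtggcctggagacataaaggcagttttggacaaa
Amy2a5 probe 2 (chr3:113084811-113084840, mm9, - strand): gcTgaGgacccatttattgcaatccatgcT
Amy1 probe (chr3:113258917-113258946, mm9, - strand): gcCgaAgacccatttattgcaatccatgcA

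Rnase1, the secreted pancreatic ribonuclease, had 1.70, 0.52 and 4.13 on HFHS arrays 3, 4 and 5, against -4.48 to -2.60 (median -3.92) on the other 10, all well above background.

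Proteins of the granule followed the enzymes they are packed with. Sycn, syncollin of the granule membrane, had 5.11, 3.58 and 7.03 on HFHS arrays 3, 4 and 5, against -2.60 to -1.33 (median -2.08) on the other 10. Zg16, a granule lectin, had 4.05, 2.67 and 6.31, against -3.83 to -2.54 (median -3.43). Gp2, the main glycoprotein of the granule membrane, differed by at least 7.42 and at least 5.71 log2 units on its 2 probes, of which the first was well above background on 4 of the other 10 arrays and the second on 0. Cuzd1, a protein of the granule membrane, and Serpini2, a serine protease inhibitor, were not well above background on any of the other 10 arrays. Set against the dimmest measurable signal of those arrays they were at least 15.6-fold and at least 49.4-fold higher on the 3 arrays, where the bound takes, on each dim array, the higher of the dimmest well-measured probe and the probe's own value.

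The regenerating proteins, secreted by acinar cells and induced when the pancreas is injured, were measured by 3 genes. Reg1 had -1.92, -3.87, 4.99, 2.82 and 6.38 on HFHS arrays 1 to 5, against -4.41 to -2.12 on the pollutant arrays and -3.75 to -2.03 on the ST vehicle arrays. Reg2 had -6.66, -7.07, 1.89, -2.07 and 1.15 on HFHS arrays 1 to 5, so that array 3 and not array 5 was the highest. On none of the other 10 arrays was Reg2 well above background, and the 3 arrays were at least 44.4-fold higher. Reg3b had -3.58, -4.42 and -2.10, close to the floor, and was at least 3.42-fold higher than on the other 10.

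The transcription factors were the class with the fewest arrays well above background. Ptf1a, whose protein leads the complex that drives the enzyme genes, was well above background on HFHS array 5 alone, at -3.09, with -5.42 and -6.59 on HFHS arrays 3 and 4 and -7.08 to -6.69 on the other 10. Bhlha15 was well above background on HFHS arrays 3 and 5, at -2.80 and -0.84, and had -4.53 on HFHS array 4, against -7.14 to -5.78 on the other 10. Rbpjl, the pancreas-restricted partner of Ptf1a, was measured on all 13 arrays by its brighter probe. That probe had -2.21, -2.33 and -0.16 on the 3 arrays, against -3.70 to -2.75 (median -3.28). For this Rbpjl probe the lowest of the 3 arrays lay 0.42 log2 units above the highest of the rest. The other Rbpjl probe was well above background on 9 of the other 10 arrays, and there the gap was 0.14. Ptf1a and Bhlha15 count among the 31 genes above all other arrays with levels not well above background on HFHS array 4, and with dim levels raised to the floor and these 2 not counted it was 29.

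Since the enzyme genes were high together, the 250 bases before the start of each gene were searched on both strands in the RefSeq promoters of build GRCm38.p6, which hold 29 of the 34 genes. The E-box CANNTG, bound by dimers of basic helix-loop-helix proteins such as PTF1A and BHLHA15, was in 24 of 29, against 66.2% of all 32851 promoters, and its form CACCTG was in 17 of 29, against 17.2%. TTTCCC, the core of the TC box that RBPJL binds, was in 9 of 29, against 21.9%. An E-box followed on the same strand within 10 bases by TTTCCC, the layout of a PTF1 site, was in 3 of 29, against 1.03% of all promoters. These matches are letters in a window and show no binding. The 90 bases around each of the 3 follow, read along the gene, with both boxes in capitals and 4 bases between them; in Prss1 they lie on the opposite strand.
Cela1 promoter (chr15:100687977-100688066, GRCm38.p6, - strand): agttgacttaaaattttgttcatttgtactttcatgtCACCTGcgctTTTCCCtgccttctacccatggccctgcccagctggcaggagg
Ctrb1 promoter (chr8:111691163-111691252, GRCm38.p6, - strand): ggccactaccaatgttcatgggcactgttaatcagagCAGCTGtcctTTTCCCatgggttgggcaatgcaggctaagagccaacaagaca
Prss1 promoter (chr6:41458787-41458876, GRCm38.p6, + strand): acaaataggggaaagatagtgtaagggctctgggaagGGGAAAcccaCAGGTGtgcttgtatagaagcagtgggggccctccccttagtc

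To compare proportions between the 3 arrays gene by gene, the rise of a gene on an array was taken on the linear scale, as its level there minus its median over the other 10 arrays. The ratio of 2 rises sets a probe against itself and assumes a linear scale. It could be formed for 30 genes, leaving out Bhlha15, Ptf1a and Rbpjl. The rise on HFHS array 5 was 4.21 times that on array 3 at the median (quartiles 3.74 and 5.40), and the rise on HFHS array 4 was 0.402 times that on array 3 (quartiles 0.350 and 0.475). By class, the median ratio of array 5 to array 3 was 4.78 for 13 proteases and 4.04 for 6 lipases and cofactors. It was 5.67 for 6 granule and inhibitor proteins and 2.64 for 3 regenerating proteins. For Amy2a5 and Rnase1 it was 5.54, taken with the Amy2a5 probe that also lists Amy1, at 5.60. The probe of Amy2a5 alone gave 1.76, so the value of this class depends on the probe.

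Single genes left that pattern. The rise of Reg2 on HFHS array 4 was 0.0620 times that on array 3, and on array 5 it was 0.598 times, the lowest of the 30 in both. Reg1 had 0.220 and 2.64, the second lowest of the 30 in both, and Reg3b had 0.506 and 2.99. At the other end Cuzd1 had 8.08, Serpini2 7.17 and Prss1 7.10 times its array 3 rise on array 5. The brightest probes went either side of the median. In order of brightness on HFHS array 5 the ratio was 1.76 for the probe of Amy2a5 alone, 3.81 for Try5, 4.78 for Cpb1, 3.24 for Try4 and 5.60 for the other Amy2a5 probe. The first of these reached 260550 intensity units there, where the brightest unflagged probe had 500790. No probe of these genes was marked as saturated, and whether the scale is compressed at that brightness was not tested. The 2 probes of Prss1 gave 7.10 and 5.29.

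**Figure D2:**
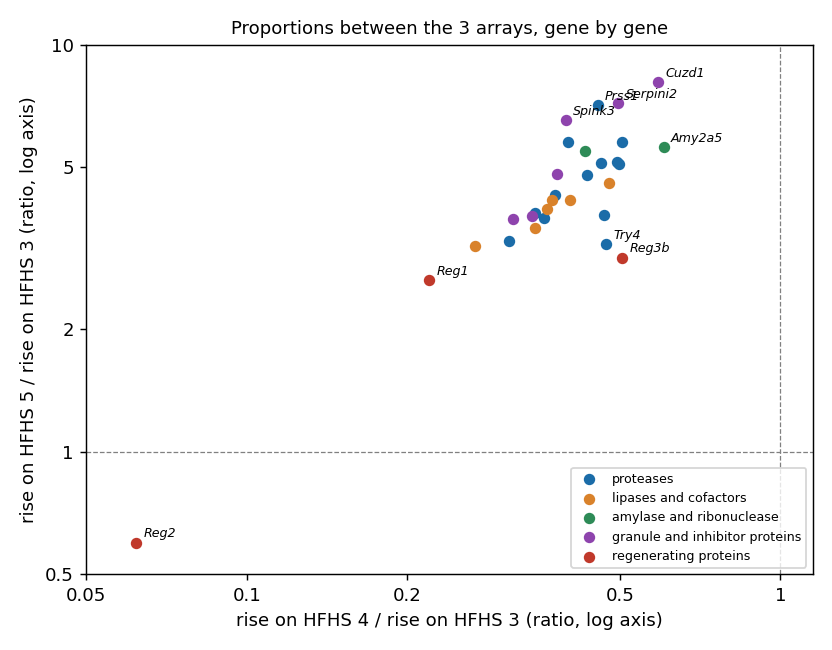
For 30 genes, the rise on HFHS array 4 (horizontal) and on HFHS array 5 (vertical), each divided by the rise of the same probe on HFHS array 3, on log axes; dashed lines mark a ratio of 1 and colours mark the roles. Most genes gather near 0.402 and 4.21, while Reg2 lies alone at 0.0620 and 0.598 and Reg1 at 0.220 and 2.64.

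Each slide had its own scan time, so slide and scan cannot be told apart. Differences between arrays of the same slide were taken over the 33 genes at the measured levels. Dim levels were not raised to the floor there, so the values are not bounds. HFHS minus pollutants had a median of 6.69, 4.57 and 8.30 log2 units on slides 3, 4 and 5. On slides 1 and 2 the medians of the same difference were 0.17 and 0.18. The HFHS array of slide 5 minus ST vehicle array 3 had a median of 8.69. The genes were chosen as high on HFHS arrays 3, 4 and 5, so nothing is read from these sizes.

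A trace of the same genes was measured on pollutant array 4. It was the highest of the other 10 arrays for 17 of 33 genes, where 13.3% of all gene names had that array highest, and 6 of the 17 stood at least 1 log2 unit above the next: Prss2, Try4, Try5, Cpa1, Cpb1 and Pnlip. The choice of these 6 followed their values. The rise there was small, at 0.318% of the rise on HFHS array 3 for Prss2, 0.249% for Try4, 0.208% for Try5, 0.320% for Cpa1, 0.370% for Cpb1 and 0.334% for Pnlip. Over the 15 genes that were highest and well above background on that array the median share was 0.338% (range 0.199% to 12.2%).

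ST vehicle array 1 stood next for some of them, with Try4 at 0.070%, Try5 at 0.084% and Cpb1 at 0.099% of their rise on HFHS array 3. Pnlip was not well above background there. No gene was highest of the 10 there. On pollutant array 4 Try4 stood at -2.30, against a median of -6.07 over the 10 arrays, and Amy2a5 at 2.62, against 2.38.

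**Figure D3:**
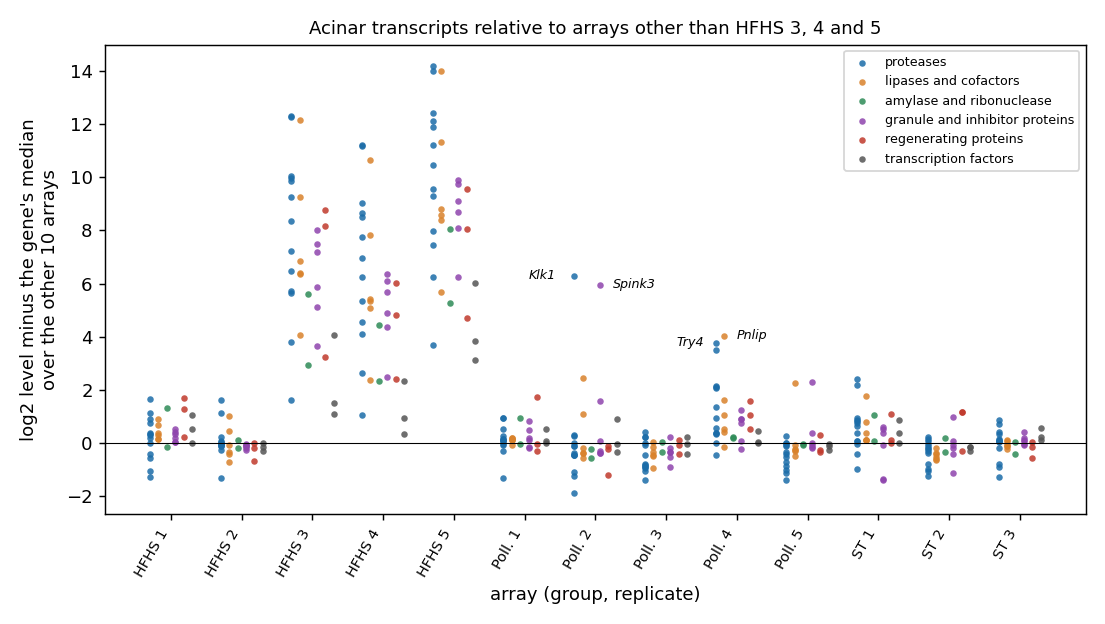
Level of each of the 33 genes on each array minus its median over the 10 arrays other than HFHS 3, 4 and 5 (log2 units, 1 point per gene, colours for the roles). HFHS arrays 3, 4 and 5 lie high with array 5 highest, pollutant array 4 carries a few points near 4, and on pollutant array 2 Klk1 and Spink3 stand alone at about 6.

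Klk1 and Spink3 were the 2 genes that overlapped between the 3 arrays and the rest, both through pollutant array 2. Klk1, tissue kallikrein of the pancreas, kidney and salivary gland, had -2.82, -2.20, 1.55, 0.37 and 3.99 on HFHS arrays 1 to 5. On pollutant arrays 1 to 5 it had -2.13, 4.05, -1.85, -2.70 and -3.26, and on ST vehicle arrays 1 to 3 it had -2.31, -2.50 and -1.91. Spink3, named Spink1 in RefSeq, is the trypsin inhibitor of the granule, and had 4.27 on pollutant array 2, against -2.01 to -0.86 on the other pollutant arrays and -1.76 to -1.08 on the ST vehicle arrays. Leaving out the 3 arrays, pollutant array 2 was the highest for 4 of the acinar genes and the lowest for 5. Besides Klk1 and Spink3, the 4 were Pnliprp2, at -4.36, and Pla2g1b, at -2.92. These lay 0.21 and 0.58 log2 units above the next array, against 5.90 for Klk1 and 5.13 for Spink3. Try4, at -7.33, and Pnlip, at -7.36, were not well above background on pollutant array 2.

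On the same array transcripts of other organs were high. Of 14 kidney genes, a list added after the values were seen, Kap, a kidney androgen-regulated protein, had 6.26, against -7.43 to -5.23 on the 12 other arrays, and Umod, the uromodulin of the thick ascending limb, had 4.11, against -6.95 to -4.39. The summed level of the kidney list was 197 on that array, and the highest of the 12 other arrays was 4.03. Of 10 adrenal genes, added in the same way, Hsd3b1 had 3.94 and Cyp11a1, which starts steroid synthesis, had -0.58, against -7.68 to -6.73. Ucp1, the uncoupling protein of brown fat in heat production, had 1.73, against -7.69 to -4.42 on the 12 other arrays. On HFHS arrays 3, 4 and 5 Kap stood at -7.27, -6.78 and -5.98, not well above background. The part of these transcripts in the Klk1 and Spink3 values was not tested.

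**Figure D4:**
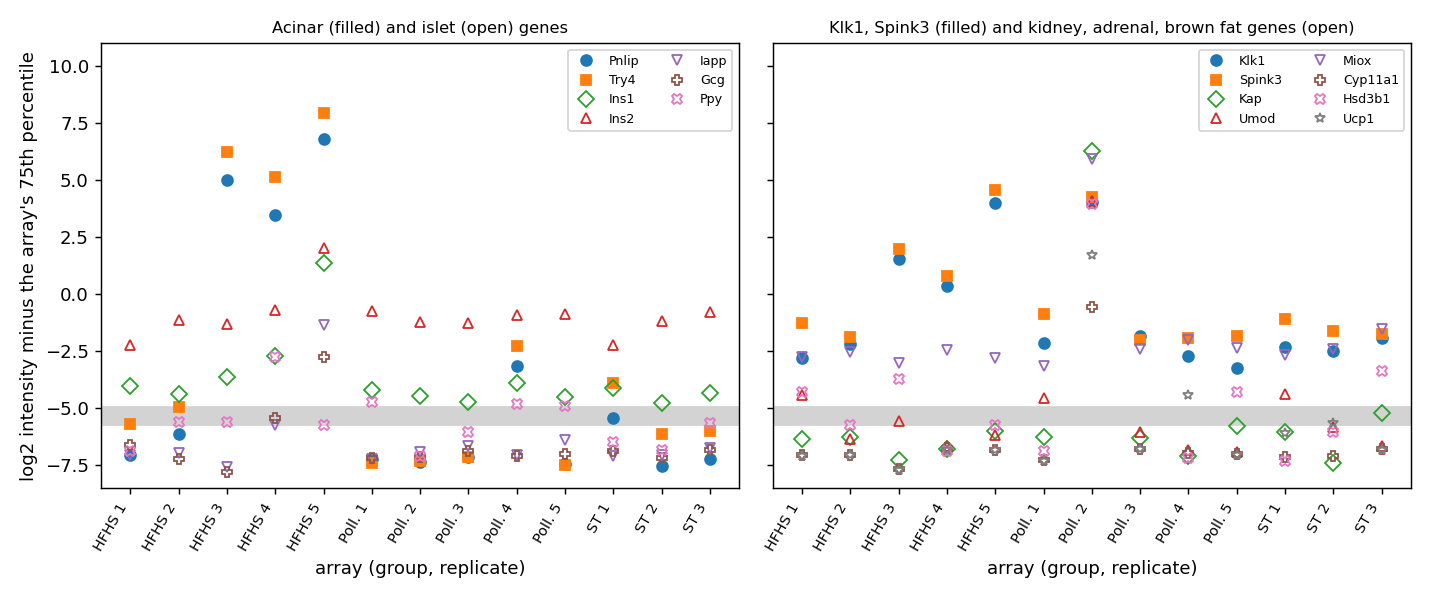
Levels on the 13 arrays (log2 intensity minus the 75th percentile of the array) of 2 acinar and 5 islet genes (left) and of Klk1 and Spink3 with kidney, adrenal and brown fat genes (right); the grey band is the range over arrays of the dimmest probe well above background. Ins1, Ins2, Iapp and Gcg are highest on HFHS array 5 and Ppy on HFHS array 4, and the genes in the right panel are high together on pollutant array 2.

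Islet hormones were present on fewer arrays than the enzymes. Of the 20 islet genes 1, Ins1, lay above all other arrays on the 3, against 0.46% of all gene names. The median difference of the list was 0.18 log2 units. Ins1, an insulin gene, had -3.65, -2.73 and 1.38 on HFHS arrays 3, 4 and 5, against -4.78 to -3.90 on the other 10. Iapp, the amylin of beta cells, and Gcg, the glucagon of alpha cells, were well above background on HFHS array 5 alone, at -1.35 and -2.75, and had -7.58 and -7.78 on HFHS array 3. Ppy, pancreatic polypeptide, was highest on HFHS array 4, at -2.74, against -5.62 on array 3 and -5.74 on array 5. HFHS array 3 was above array 4 in the enzymes and below it in Ins1. The summed level of the islet list was 3.03 to 10.65 on the 3 arrays and 2.85 to 14.43 on the other 10, where the highest was pollutant array 2 with Chga at 2.27 and Chgb at 2.61.

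Markers of other cell types that pancreas, gut or fat could bring were read next. No gene lay above all other arrays in the lists of duct and cholangiocyte, small intestine, stomach, adipocyte, B and plasma cell, T cell and stellate cell genes. Of all gene names 0.46% did so, so lists this short would rarely hold such a gene. Nothing is read from its absence. The median differences of these 7 lists were between -0.30 and 0.04 log2 units. The summed level of the adipocyte list was 138, 163 and 234 on HFHS arrays 3, 4 and 5, and 138 and 164 on HFHS arrays 1 and 2. It was 45.2 to 102 on the pollutant arrays and 107 to 146 on the ST vehicle arrays, and its part in the enzyme levels was not tested. Muc2, the mucin of goblet cells, was well above background on HFHS array 4 alone, at -3.91, against -7.89 and -7.10 on HFHS arrays 3 and 5. Of 10 salivary gland genes 1, Amy1, lay above all other arrays on the 3.

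Genes of the secretory pathway and the unfolded protein response, which acinar cells express strongly, differed little. For the 20, all well above background on every array, the median difference was 0.02 log2 units. Above all other arrays lay 1, against 0.46% of all gene names. That gene was Nupr1, a stress protein of the acinar cell, with 1.39, 0.08 and 2.80 on HFHS arrays 3, 4 and 5, against -1.09 to -0.50 on the other 10. In bulk RNA the number of cells that hold these transcripts and the amount per cell cannot be told apart.

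Other acinar genes, outside the 34, moved in part with them. Of 17 measured, 7 lay above all other arrays on the 3, and 4 by at least 1 log2 unit, among them Pdia2, Tff2 and Reg3d. Over all gene names these shares were 0.46% and 0.127%. Pdia2, a protein disulfide isomerase of the pancreas, had 1.66, 0.17 and 3.76 on HFHS arrays 3, 4 and 5, against -5.28 to -3.91 on the other 10. Nr5a2, a nuclear receptor of acinar cells and hepatocytes, overlapped, with 2.52, 2.57 and 2.45, against 1.94 to 2.64.

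Over the 30028 gene names, 37 were well above background on the 3 arrays and at least 1 log2 unit above the highest of the other 10, of which 26 belong to the 34 genes. Of the other 11, 5 have a symbol that is not a clone name. The Pearson correlation over the 13 arrays with the mean of the 31 genes measured on the 3 arrays was 0.99 for Pdia2 and Amy1, 0.98 for Tff2, a trefoil peptide, and 0.96 for Reg3d. All 13 points share the split into 3 high and 10 low arrays. Of the 6 clone names, Gm13011 is Cela3a in RefSeq, an elastase, and had 4.16, 2.66 and 6.25, against -4.81 to -3.09.

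The mixture of pollutants was compared with ST vehicle (n = 5 and 3), a contrast of group means that hold none of the 3 arrays. The filter on dim probes, the choice of probe and the estimate of the spread did use them. In the limma fit over 19533 genes, 22 of the 33 acinar genes passed the filter and 0 were called in either direction, with 0 under an unadjusted p of 0.05. Prss2, Pnliprp1, Cela3b and Cpb1 passed only through the HFHS group, with 5, 4, 8 and 7 of the other 10 arrays well above background. Of all genes tested 0.538% were called higher and 0.435% lower. The median difference was 0.02 log2 units over the 22 genes and -0.01 over all genes, and 12 of the 22 were positive.

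Klk1 and Spink3 had the largest positive differences, with pollutant array 2 the highest of the group in both. Spink3 differed by 1.01 ± 1.57 (SE) log2 units with the lowest adjusted p of the 22, 0.909, and Klk1 by 1.06 ± 1.71 with an adjusted p of 0.912 (limma, Benjamini-Hochberg). Cela2a had the most negative difference, -0.74 ± 2.36 (adjusted p 0.966, limma), with -4.91 ± 0.75 on the pollutant arrays and -4.17 ± 0.40 on the ST vehicle arrays (SD, n = 5 and 3). Pollutant arrays 3 and 5, at -6.01 and -5.33, lay under their floors of -4.94 and -5.30. The difference thus rests in part on levels that carry no order. The fit shares 1 estimate of the spread with the HFHS group, and the 95% interval for Cel ran from -3.42 to 3.53.

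Without HFHS arrays 3, 4 and 5 the differences were the same, and the median standard error was 0.38 log2 units, against 1.76 with them. Again 0 of the 22 genes were called and 0 were under an unadjusted p of 0.05. The 95% interval then ran from -0.65 to 0.76 for Cel, from -0.52 to 0.53 for Clps and from -0.32 to 0.41 for Amy2a5. A further fit, with the slide as a block, kept HFHS arrays 3, 4 and 5, so it is no check free of them. In that fit 3 of the 22 differences were positive and 0 were called. The median difference was -0.63 log2 units, against 0.02 without the block, and the median standard error was 1.83. On the slides that held both groups, pollutants minus ST vehicle was taken over the 33 genes at the measured levels, dim ones included. Its median was -0.12 on slide 1, 0.06 on slide 2 and -0.22 on slide 5.

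**Figure D5:**
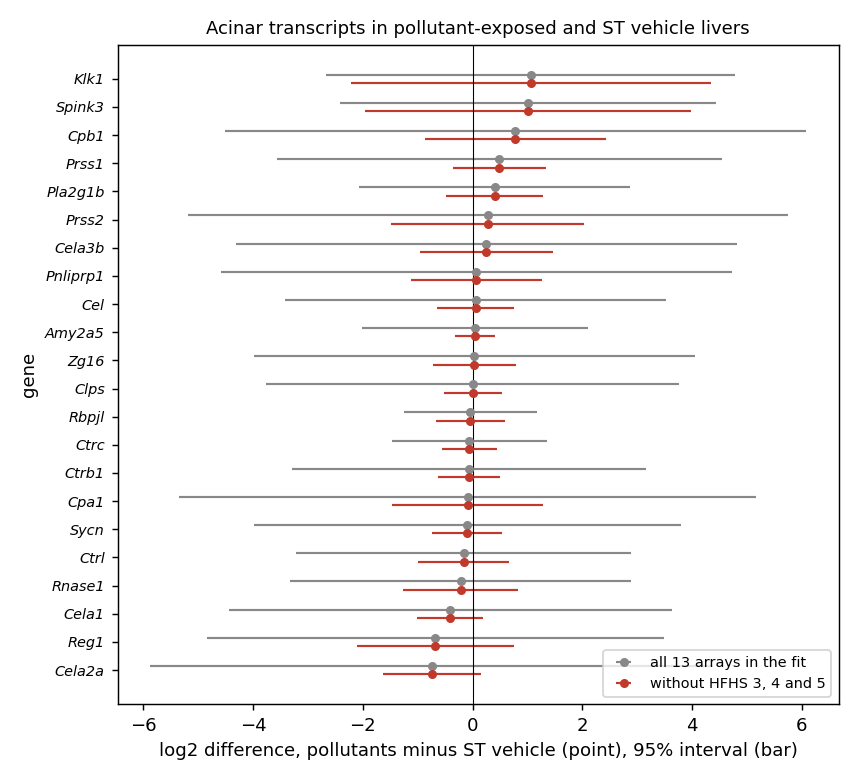
Difference of 22 acinar transcripts between pollutant and ST vehicle livers (log2 units, points) with 95% intervals (bars), from the fit on all 13 arrays (grey) and the fit without HFHS arrays 3, 4 and 5 (red). Every interval includes 0, and all but those of Klk1 and Spink3 narrow greatly without the 3 arrays.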

How the data were processed

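Liver RNA of 13 mice was hybridised to one-colour (Cy3) Agilent 44K mouse arrays, 0.1 ug of total RNA each. Feature Extraction 11.5.1.1 made the deposited intensity of each spot, corrected for background, per the file headers. The authors' deposited table holds log2 values by their size, for 26082 probes; all 13 columns matched their own array best, its normalization is not given in the sources used here, and it served as an alternative. Per the submitters' processing notes limma was used. Here control spots were left out, 183 to 283 flagged outlier spots per array were set missing, spots of a probe were averaged, and log2 intensity was scaled to the 75th percentile of each array. The probe of highest mean stood for a gene. Tests used limma 3.58.1 in R 4.3.3 with all 3 groups in 1 model, two-sided, with Benjamini-Hochberg adjustment at 0.05, over the 19533 genes that exceeded background clearly in all arrays of 1 group or more. The number of arrays limits the precision. Genes named outside the 34 were those at least 1 log2 unit above the other arrays, ordered by correlation, and list genes above all other arrays. The 34 genes and all lists were chosen with earlier results of these data known. Alternatives were normexp background correction, quantile normalization, no filter, the mean of all probes, blocks for slide and replicate number, the authors' table and leaving out arrays. Of the genes outside the 34 that met these terms, 1 is not reported here.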

Additional observations from a re-analysis of the deposited data

Results flagged for a closer look

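In all 66 groups were examined (33 genes in HFHS and in pollutants, 5 arrays each). Of these, 6 held an array whose gap to the nearest of the others exceeded Dixon's critical value of 0.71 of the range. Chance gives about 1 in 20 independent groups. The genes share the same arrays, so the groups are not independent and the count is not set against that rate. The genes were chosen for being high on 3 of the 5 HFHS arrays, which leaves little room for a single HFHS array to stand apart, so the 33 pollutant groups are the ones that bear on it. There, 3 of the 6 were on array 4 and 3 on array 2. On pollutant array 4 Try4 had -2.30, with the nearest at -7.14, Pnlip had -3.15, with the nearest at -7.13, and Ctrb1 had 0.58, with the nearest at 0.08. On pollutant array 2 Klk1 had 4.05, with the nearest at -1.85, and Spink3 had 4.27, with the nearest at -0.86. Bhlha15 had -5.95 there, with the nearest at -6.84, and was not well above background on any pollutant array.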

How the results depend on the processing

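For pollutants against ST vehicle, 0 acinar genes were called by limma under every alternative run. The count of acinar genes above all other arrays on HFHS arrays 3, 4 and 5 was 30 with quantile normalization, 31 with normexp, 22 of 25 in the authors' table and 31 to 33 with an array left out, the 33 coming without pollutant array 2; their median difference was 5.79 to 7.20 under the other settings and 5.95 to 7.91 with an array left out. Leaving out pollutant arrays 2 and 4, or keeping only genes well above background on the 3 arrays, was chosen after seeing the data and gave 33 and 29 of 31; so was raising dim levels to the floor, which gave 29 and a median difference of 6.55. The difference of Cpa1 between pollutants and ST vehicle, -0.09, was 0.0437 with normexp and 0.0333 in the authors' table; the cause was not tested. Counts over all genes moved more. HFHS against ST vehicle, 134 calls, gave 46 with normexp, 55 without the filter, 84 with the slide block, 6 without HFHS arrays 3, 4 and 5, and 29 to 135 with an array left out. Pollutants against ST vehicle, 190 calls, gave 22, 70, 67, 82 and 42 to 172 in the same order. HFHS against pollutants, 756 calls, gave 283 with normexp, 361 without the filter, 790 with the slide block, 297 without HFHS arrays 3, 4 and 5, and 345 to 691 with an array left out. Deviations of same-numbered arrays correlated by -0.0274 to 0.562 in the 9 pairs on a shared slide, 8 of them over 0.1, and by -0.168 and -0.154 in the 2 pairs on different slides. Since not every pair was over 0.1 the numbers were not taken as pairing. For HFHS and pollutants the number is the slide. The main model thus holds no term for the slide, and what arrays of a slide share stays in its spread. The replicate block gave 53, 44 and 563 calls in the 3 comparisons. Levels near the floor carry no order.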

Other observations

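Further genes of other organs were high on pollutant array 2, in lists added after the values were seen. Miox, which starts the breakdown of inositol in kidney, had 5.94, against -3.17 to -1.54 on the 12 other arrays. Cyp21a1, a steroid hydroxylase of the adrenal cortex, had 3.43, against -0.86 to 0.48. The summed level of the adrenal list was 36.0 on that array, and the highest of the 12 other arrays was 3.31.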
